A study of Homo sapiens with 45 samples.

Results

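RNA-seq of untreated neuroblastoma cells was used to ask how SH-SY5Y, a line without MYCN amplification, differs from the MYCN-amplified lines SK-N-BE(2)C and IMR-32. All 3 are human lines of the adrenergic (ADRN) type. SK-N-BE(2)C is described as a line with MYCN amplification and 1p loss. IMR-32 carries amplified MYCN and MEIS1 with 1p loss. SH-SY5Y carries mutant ALK with gains of a 1q segment and of 17q. Of the 45 libraries in the series, the 15 labelled control were taken, 5 per line, and none with palbociclib. The control cells of each line were kept in DMEM/F12 with serum, and the replicates are separate passages of the same line. Genes were then chosen that stood on the same side of both amplified lines: called in SH-SY5Y against the mean of the 2 lines, against SK-N-BE(2)C and against IMR-32, always in the same direction. These are called concordant genes below. Since only 1 line without amplification was sequenced, MYCN status and the identity of SH-SY5Y cannot be told apart in any value that follows.

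MYCN and MYC are transcription factors that bind DNA together with MAX, often at the E-box CACGTG, and drive ribosome production, metabolism and cell division. Amplification of MYCN in neuroblastoma puts many copies of the gene and of its neighbours on 2p into one tumour cell, and tumours without it can express MYC in its place. Adrenergic neuroblastoma cells resemble sympathetic neuroblasts and keep a core circuit of factors such as HAND2 and GATA3, whereas mesenchymal cells resemble neural crest and use NOTCH, YAP and matrix genes.

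Libraries held 13459219 to 23930236 counts, so that 1 CPM (counts of a library brought to a common size, here with TMM factors) was about 20 reads in the median library, and 15173 of 29159 genes passed the filter on low counts. Log2 CPM values correlated at 0.991 to 0.994 among the SH-SY5Y libraries and at 0.989 to 0.995 within SK-N-BE(2)C. A single library, IMR-32 replicate 5, stood apart, at 0.965 to 0.973 with the other IMR-32 libraries, which reached 0.992 to 0.996 among themselves. SK-N-BE(2)C replicates 3, 4 and 5 differed from each other by only 2.43 to 3.18 chi-square per degree of freedom, less than any other pair, and may share a source. Summed over 6 adrenergic markers, the libraries lay between 1930 and 2210 CPM in SK-N-BE(2)C, 2010 and 3060 CPM in IMR-32, and 3370 and 4590 CPM in SH-SY5Y. The adrenergic marker TH was near absent in SH-SY5Y, at 0.323 CPM, and DBH and HAND2 made up most of the sum there. The 7 mesenchymal markers found summed to 561 to 780, 354 to 971 and 983 to 1390 CPM, with IMR-32 replicate 5 the highest of its line. Those of glial cells summed to at most 21.2 CPM, and those of blood and endothelial cells to at most 6.58 CPM with CD3E, PECAM1 and CDH5 at 0 in SH-SY5Y. In bulk RNA, fewer cells that express a gene and less RNA of it per cell cannot be told apart.

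SH-SY5Y was not the most distant line. Its libraries correlated with those of SK-N-BE(2)C at a median of 0.826 and with those of IMR-32 at 0.756, and the amplified lines correlated with each other at 0.727. Calls required a log2 fold change beyond 0.5 with an adjusted p under 0.05. Against the mean of both lines 7472 genes were called (49.2% of those tested), 4282 higher in SH-SY5Y (28.2%) and 3190 lower (21%). Against SK-N-BE(2)C alone 30.9% of the genes were higher and 26.9% lower (57.8% in all), and against IMR-32 alone 27.6% were higher and 26.4% lower (54% in all). Between the amplified lines 29.8% were higher in SK-N-BE(2)C and 32.2% higher in IMR-32 (62% in all). Concordant genes numbered 3625, or 23.9% of those tested: 2017 were higher in SH-SY5Y (13.3%) and 1608 lower (10.6%). By the same rule SK-N-BE(2)C stood above both other lines at 16.1% of genes and below them at 19.4% (35.5% in all), and IMR-32 above at 16.9% and below at 16.1% (32.9% in all), so that SH-SY5Y had the lowest share of the 3. The comparisons with single lines share the SH-SY5Y libraries. Scaling by library totals alone moved the median log2 fold change over all genes from 0.05 to 0.22 and the concordant split to 2649 higher and 1148 lower, so the share of genes on each side depends on the scaling.

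**Figure D1:**
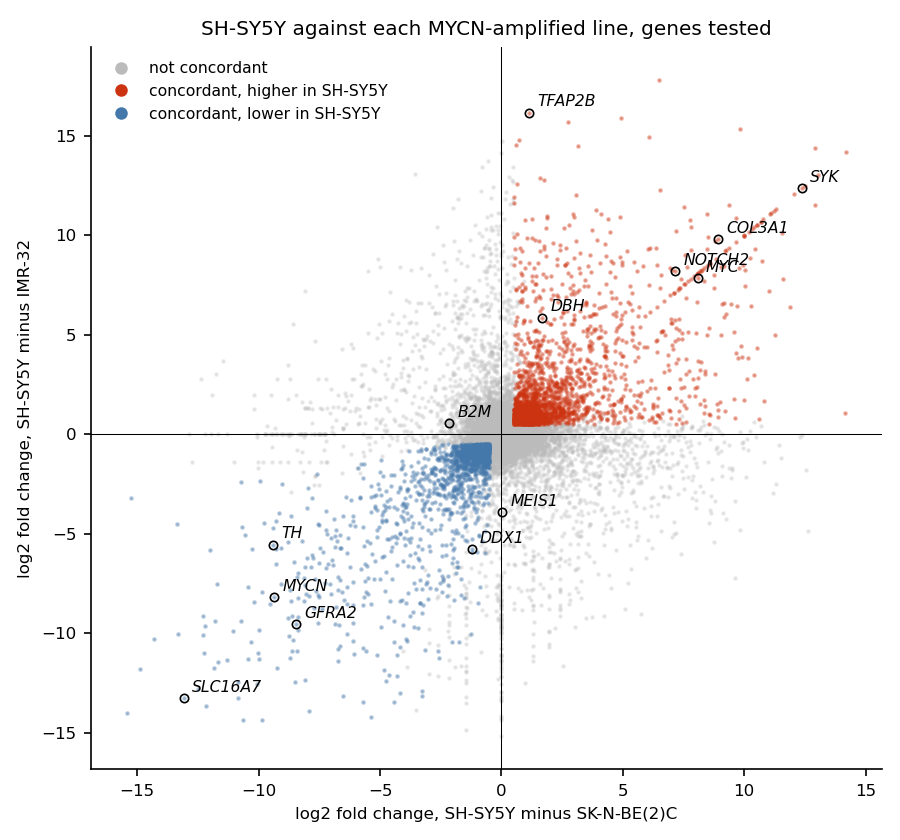
Fitted log2 fold change of SH-SY5Y minus SK-N-BE(2)C (x axis) and minus IMR-32 (y axis) for the genes tested, leaving out those of the Y chromosome. Red and blue points are genes called in the same direction in every comparison, such as MYC and MYCN, while grey points such as B2M lay on opposite sides of the 2 amplified lines or missed a call; values beyond about 10 rest on genes near 0 counts in one line and are not exact.

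MYCN and MYC differed between the lines in opposite directions. MYCN (2p, chr2:16080672-16087129, plus strand, hg19) reached 4570, 3480, 3430, 4080 and 3800 CPM in the SK-N-BE(2)C libraries and 1840, 1660, 1850, 1870 and 1370 CPM in those of IMR-32, against 4.56, 6.07, 5.6, 7.66 and 5.50 CPM in SH-SY5Y. The groups did not overlap, and MYCN was lower in SH-SY5Y by a log2 difference of -9.36 ± 0.16 (SE) from SK-N-BE(2)C and -8.19 ± 0.16 from IMR-32 (adjusted p = 1.5e-16 and 1.7e-16). MYC (8q, chr8:128747680-128755197) had the opposite pattern. It stood at 73.7, 79.6, 78.0, 82.5 and 73.3 CPM in SH-SY5Y, against 0.145, 0.0909, 0.411, 0.461 and 0.389 CPM in SK-N-BE(2)C and 0.324, 0, 0.515, 0.483 and 0.304 CPM in IMR-32. Every SH-SY5Y library lay above every library of the amplified lines, 259-fold and 238-fold by the means, with log2 fold changes of 8.07 ± 0.27 and 7.86 ± 0.26 (adjusted p = 1.5e-13 and 1.1e-13).

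Per kilobase of annotated exon, the level of MYC in SH-SY5Y was 12.7 CPM and that of MYCN 2.13 CPM, while MYCN stood at 1400 and 624 CPM per kilobase for SK-N-BE(2)C and IMR-32. The MYC transcript in SH-SY5Y thus lay far under the MYCN transcript of either amplified line. MYCL, the third member, lay between the amplified lines, at 3.11 ± 0.276 CPM (SD, n = 5, as for all means below) against 0.797 ± 0.512 in SK-N-BE(2)C and 7.26 ± 1.54 CPM in IMR-32, and was not concordant. MAX, the shared partner, was at 48.2 ± 2.33, 78.8 ± 3.25 and 58.1 ± 2.07 CPM in SH-SY5Y, SK-N-BE(2)C and IMR-32. All 5 SH-SY5Y libraries were below the others for MAX, but the difference from IMR-32 (-0.27 ± 0.05) was under the fold limit. Of the 13 genes of the MYC network tested, MYC alone was concordantly higher (7.69%, against 13.3% of all genes) and 3 were lower (23.1%, against 10.6%): MYCN, MLX and MLXIP, of which MLX and MLXIP form glucose-sensing partners of the network. MLX stood at 47.8 ± 3.23 CPM against 91.2 ± 5.44 and 90.2 ± 4.63 CPM.

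**Figure D2:**
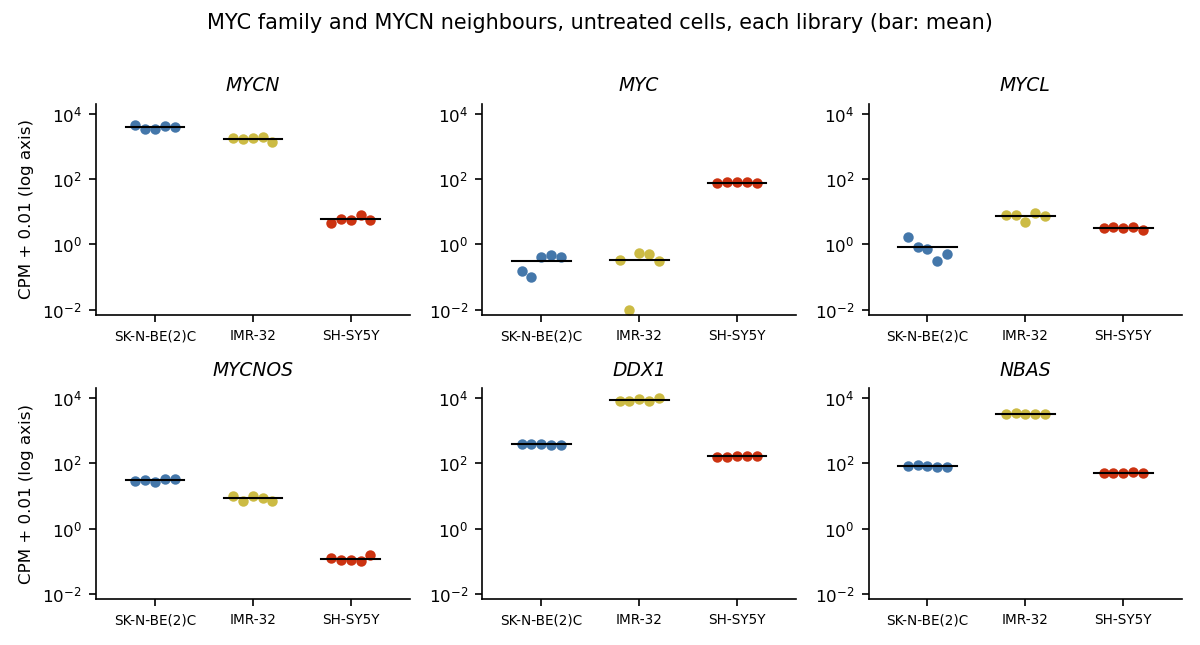
CPM + 0.01 on a log axis for the MYC family and 3 neighbours of MYCN, with 1 point per library and a bar at the mean of 5. MYCN sits above 1300 CPM in every amplified library and under 8 CPM in SH-SY5Y, MYC is the reverse, and DDX1 and NBAS are high in IMR-32 alone.

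Next to MYCN on 2p lie MYCNOS, its antisense transcript, and the protein-coding genes DDX1, an RNA helicase, and NBAS, which acts in vesicle transport. Of 12 genes of this neighbourhood tested, these 3 were concordantly lower in SH-SY5Y (25%, against 10.6% of all genes) and none was higher (against 13.3%). The neighbourhood as a whole was not uniformly lower, with a median log2 fold change of -0.91 from SK-N-BE(2)C but 0.49 from IMR-32. MYCNOS was at 0.109 ± 0.0229 CPM against 29.9 ± 2.65 and 8.51 ± 1.57 CPM. Because it overlaps MYCN on the other strand, and because the sources used here do not give the strand setting of the counting, its reads may be those of MYCN. DDX1 (chr2:15731302-15774470) stood at 159, 161, 162, 162 and 170 CPM in SH-SY5Y, at 394, 383, 391, 376 and 370 CPM in SK-N-BE(2)C, and at 7970, 8300, 9500, 8120 and 10100 CPM in IMR-32. NBAS (chr2:15307040-15701464) was at 50.8 ± 2.01, 80.6 ± 4.06 and 3213 ± 104 CPM in the same order. DDX1 and NBAS were thus concordant by very unequal steps, with log2 fold changes, in that order, of -1.23 ± 0.06 and -0.67 ± 0.05 from SK-N-BE(2)C but -5.76 ± 0.08 and -5.98 ± 0.06 from IMR-32. Other genes that the study names as altered in these lines did not separate SH-SY5Y from both. ALK was at 43.1 ± 6.24 CPM, between 11.2 ± 5.89 and 113 ± 34.9 CPM, and MEIS1 at 23.3 ± 0.845 CPM against 23.1 ± 2.73 in SK-N-BE(2)C and 347 ± 29.7 CPM in IMR-32.

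Among 58 known MYC targets, 12 were concordantly lower in SH-SY5Y (20.7%, against 10.6% of all genes) and 3 higher (5.17%, against 13.3%). Their median log2 fold change from the mean of both lines was -0.32, beside 0.05 over all genes, and was -0.59 from SK-N-BE(2)C and -0.11 from IMR-32. NPM1, a nucleolar chaperone of ribosome assembly, stood at 695, 756, 800, 768 and 831 CPM in SH-SY5Y, below all libraries of SK-N-BE(2)C (1950, 2050, 1860, 1800 and 1850 CPM) and of IMR-32 (1370, 1450, 1550, 1370 and 1850 CPM). Its log2 fold changes were -1.30 ± 0.08 and -0.98 ± 0.08 (adjusted p = 1.7e-10 and 5.8e-09). SLC29A2, a nucleoside transporter, was at 18.1 ± 2.15 CPM against 55.8 ± 4.99 and 52.6 ± 6.47, and PA2G4, a growth-regulated nucleolar protein, at 247 ± 15.7 CPM against 579 ± 15.4 and 448 ± 65.4. RABEPK was also lower, at 21.6 CPM against 44.1 and 86.8 CPM. Of those higher, DUSP2, a phosphatase of MAP kinases, was at 5.90 ± 1.43 CPM against 1.46 ± 0.671 and 0.0269 ± 0.0396 CPM, and MAP3K6 at 23.8 ± 2.68 CPM against 5.09 ± 0.619 and 12.3 ± 1.31 CPM. The 75 proteins of the cytosolic ribosome tested had 10 concordantly lower members (13.3%, near the 10.6% of all genes that were lower), among them RPS15 at 421 ± 35.5 CPM against 722 ± 26.2 and 723 ± 51.1 and RPL24 at 334 ± 36.4 CPM. RPL11 was the sole higher one (1.33%, against 13.3% of all genes). Without SH-SY5Y replicate 1 the ribosomal list had 7 concordant genes instead of 11. With library totals alone its count was 1 lower and 1 higher, and that of the MYC targets 7 lower and 5 higher. Ribosomal genes and NPM1 have processed copies in the genome that can share reads.

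Promoters from the RefSeq table (GRCh38.p14, 250 bases before to 50 after a gene's start) were available for 11400 of the genes tested, and 10% of these held CACGTG, which reads the same on both strands. Among concordantly lower genes the share was 13.1% (151 of 1150), among higher ones 6.48% (95 of 1466) and among genes that were not concordant 10.2%. No test was made of these shares. Of the MYC targets 20 of 47 promoters held the motif, and of their lower members 3 of 10. The MYC network, the MYC targets and the list of serine, one-carbon and polyamine synthesis had 3, 12 and 7 concordantly lower genes. List members that held the motif without being lower are not shown. Of the lower genes, 6 had the motif: ATF4, CDK4, HSPD1, HSPE1, MLX and MTHFD1. The bases before their starts are shown because these are the places where a MYC protein could bind, with CACGTG in capitals, and HSPD1 and HSPE1, a chaperonin and its cochaperonin, start in opposite directions from a shared stretch, given once.
CDK4 (chr12:57752346-57752560, minus strand): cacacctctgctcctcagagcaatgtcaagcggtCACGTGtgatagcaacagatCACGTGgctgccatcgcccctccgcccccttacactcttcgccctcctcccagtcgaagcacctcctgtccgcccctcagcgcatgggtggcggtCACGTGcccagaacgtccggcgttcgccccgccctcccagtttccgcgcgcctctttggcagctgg
HSPE1 and HSPD1 (chr2:197500297-197500378, plus strand): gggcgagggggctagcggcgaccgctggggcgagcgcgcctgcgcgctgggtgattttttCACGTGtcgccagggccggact
MTHFD1 (chr14:64388278-64388352, plus strand): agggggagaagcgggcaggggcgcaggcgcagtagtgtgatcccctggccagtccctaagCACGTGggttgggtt
MLX (chr17:42566990-42567099, plus strand): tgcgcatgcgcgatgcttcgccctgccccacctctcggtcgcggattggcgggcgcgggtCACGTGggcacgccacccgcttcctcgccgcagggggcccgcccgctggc
ATF4 (chr22:39520417-39520542, plus strand): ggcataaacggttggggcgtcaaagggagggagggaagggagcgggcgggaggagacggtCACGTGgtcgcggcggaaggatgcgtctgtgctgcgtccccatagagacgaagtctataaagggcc
CDK4 thus had 3 copies, from 216 to 101 bases before its start, and the others 1 each. CDK4, the kinase of G1 that palbociclib targets, was at 233 ± 13.6 CPM in SH-SY5Y against 385 ± 12.9 and 338 ± 47.2 CPM. HSPD1 was at 635 ± 28.6 CPM against 1213 ± 89.9 and 1026 ± 157 CPM. CDK4 was not called with library totals alone (-0.46 from the mean) and not concordant without IMR-32 replicate 5, and no binding was measured here.

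In the list of serine, one-carbon and polyamine synthesis, the serine and one-carbon steps feed nucleotide production. Of its 35 genes 7 were concordantly lower in SH-SY5Y (20%, against 10.6% of all genes) and none higher (against 13.3%). The lower ones included SAT1, which breaks polyamines down, at 2.45 ± 0.494 CPM against 8.79 ± 1.01 and 4.35 ± 0.704 CPM. The list's median was -0.64 from the mean of both lines, -0.71 from SK-N-BE(2)C and -0.20 from IMR-32. ALDH1L2, the mitochondrial enzyme that oxidises formyl folate, showed the largest step of the list. It stood at 10.5, 9.09, 7.38, 10.2 and 11 CPM in SH-SY5Y, at 80.0, 74.6, 76.5, 77.5 and 77.9 CPM in SK-N-BE(2)C and at 77.8, 85.3, 82.2, 75.2 and 96.0 CPM in IMR-32, and its log2 fold changes were -3 ± 0.10 and -3.11 ± 0.10 (adjusted p = 7.2e-14 and 3.5e-14). SHMT2, which moves a carbon from serine to folate, was at 95.9 ± 9.85 CPM against 254 ± 13.2 and 226 ± 29.9 CPM. MTHFD1, the cytosolic folate enzyme whose promoter is printed above, was at 150 ± 7.82 CPM against 464 ± 11.4 and 260 ± 56.2 CPM, and ATF4, the regulator that drives serine synthesis genes, at 150.3 ± 12.9 CPM against 369 ± 4.96 and 248 ± 54.4 CPM. With library totals alone 5 members were lower and 2 higher.

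Many of the largest concordant differences were genes at or near 0 on one side. Absence, as a mean under 0.1 CPM, in both amplified lines with at least 1 CPM in SH-SY5Y was found for 118 concordant genes, and the reverse for 92. On the higher side ranked MAGEA6, MAGEA3, TES, MAGEA12, SYK, DUSP23, MAGEA10, RCAN3, TFPI2 and MSRB3. SYK, a tyrosine kinase best known from blood cells, had 31.6, 36.7, 36.8, 31.0 and 28.5 CPM in SH-SY5Y and no read in any of the 10 other libraries, which makes it at least 1020-fold higher than in SK-N-BE(2)C and at least 1070-fold higher than in IMR-32, taking 3 counts over the 5 libraries of a line as the floor. TES, which encodes a focal adhesion protein, stood at 133 ± 9.35 CPM, against 1 read over all SK-N-BE(2)C libraries (ratio 12300, counting interval 2210 to 486000) and none in IMR-32. The MAGEA genes are cancer-testis antigens of the X chromosome. MAGEA6, MAGEA3 and MAGEA12 reached 117 ± 2.56, 51.8 ± 2.81 and 36.2 ± 0.442 CPM with no read in either amplified line, but they are near-identical copies whose reads the counting could have divided wrongly. TFPI2, a protease inhibitor of the matrix, was at 259 ± 76.4 CPM against 0.260 ± 0.192 CPM in SK-N-BE(2)C and no read in IMR-32.

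On the lower side ranked SLC16A7, GRIK3, ADCYAP1, PRUNE2, B3GALNT1, STC1, NKX6-1, LIN7A, CACNA1H and NRIP1. SLC16A7, a monocarboxylate transporter that imports pyruvate and lactate, had 42.1, 56.3, 62.5, 55.3 and 53 CPM in SK-N-BE(2)C and 61.9, 78.1, 51.4, 66.3 and 49.8 CPM in IMR-32, but no read in SH-SY5Y, where it was at least 1980-fold and 2260-fold lower. ADCYAP1, the neuropeptide PACAP, was at 70.4 ± 20.6 and 195.5 ± 29.9 CPM for SK-N-BE(2)C and IMR-32, with 1 read over all SH-SY5Y libraries (ratios 7490 and 21700, counting intervals 1340 to 296000 and 3900 to 858000). NKX6-1, a homeobox factor, and LIN7A, a synaptic scaffold, also had 1 read each in SH-SY5Y. NRIP1, a corepressor of nuclear receptors that retinoic acid is known to induce, was at 0.270 ± 0.134 CPM against 115 ± 8.54 and 301 ± 31.5 CPM.

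Of 23 adrenergic transcription factors 4 were concordantly higher in SH-SY5Y (17.4%, near the 13.3% of all genes) and 1 lower (4.35%, against 10.6%). HAND2 stood at 1050, 1060, 1120, 1240 and 1110 CPM in SH-SY5Y, above 496, 401, 461, 516 and 482 CPM in SK-N-BE(2)C and 911, 786, 701, 921 and 567 CPM in IMR-32. The difference from IMR-32 was small (0.52 ± 0.11, adjusted p = 0.00041) and lost its call without IMR-32 replicate 3, IMR-32 replicate 5 or SH-SY5Y replicate 4. TFAP2B, a neural crest factor, was at 387, 555, 429, 497 and 437 CPM in SH-SY5Y, 238, 248, 189, 177 and 196 CPM in SK-N-BE(2)C, and had no read in IMR-32. LMO1, a cofactor that carries neuroblastoma risk variants, was at 26.1 ± 2.28 CPM against 2.28 ± 0.379 and 0.656 ± 0.267 CPM. ISL1 was at 215 ± 15.6 CPM against 96.4 ± 5.13 and 138 ± 41.8 CPM, and it too was not concordant without IMR-32 replicate 5. With that library left out and the 3 related SK-N-BE(2)C libraries summed, the list had 2 higher and 1 lower. The core factor GATA3 lay between the amplified lines, at 350.1 ± 24.2 CPM against 225 ± 26.3 and 491 ± 60.

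Genes of catecholamine synthesis and storage differed in both directions. TH, the first and rate-limiting enzyme, was near absent in SH-SY5Y at 0.232, 0.777, 0.241, 0.269 and 0.0974 CPM, against 222, 189, 219, 228 and 237 CPM in SK-N-BE(2)C. The IMR-32 libraries had 20.1, 13.6, 15.2 and 25 CPM and, in replicate 5, 0.852 CPM, still above the highest SH-SY5Y library, and the log2 fold changes of TH were -9.40 ± 0.64 and -5.54 ± 0.67 (adjusted p = 1.0e-09 and 1.3e-06). DBH, which turns dopamine into noradrenaline, was the reverse, with 1290, 1590, 1250, 2080 and 1660 CPM in SH-SY5Y, 571, 591, 438, 431 and 430 CPM in SK-N-BE(2)C and 36.9, 34.6, 12.3, 39.7 and 10.0 CPM in IMR-32 (1.68 ± 0.30 and 5.87 ± 0.36, adjusted p = 7.8e-05 and 3.0e-10). The vesicular transporters of monoamines also went opposite ways: SLC18A1 was at 142 ± 15.7 CPM against 16 ± 5.83 CPM and no read in IMR-32, while SLC18A2 was at 2.49 ± 0.206 CPM against 81.0 ± 19 and 9.20 ± 1.75 CPM. PNMT, which makes adrenaline, was higher at 3.54 ± 0.499 CPM, and SCG3, a granule protein, was lower at 85.3 ± 6.77 CPM. In all, 4 of the 21 genes tested were concordantly higher (19%) and 6 lower (28.6%), against 13.3% and 10.6% of all genes.

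**Figure D3:**
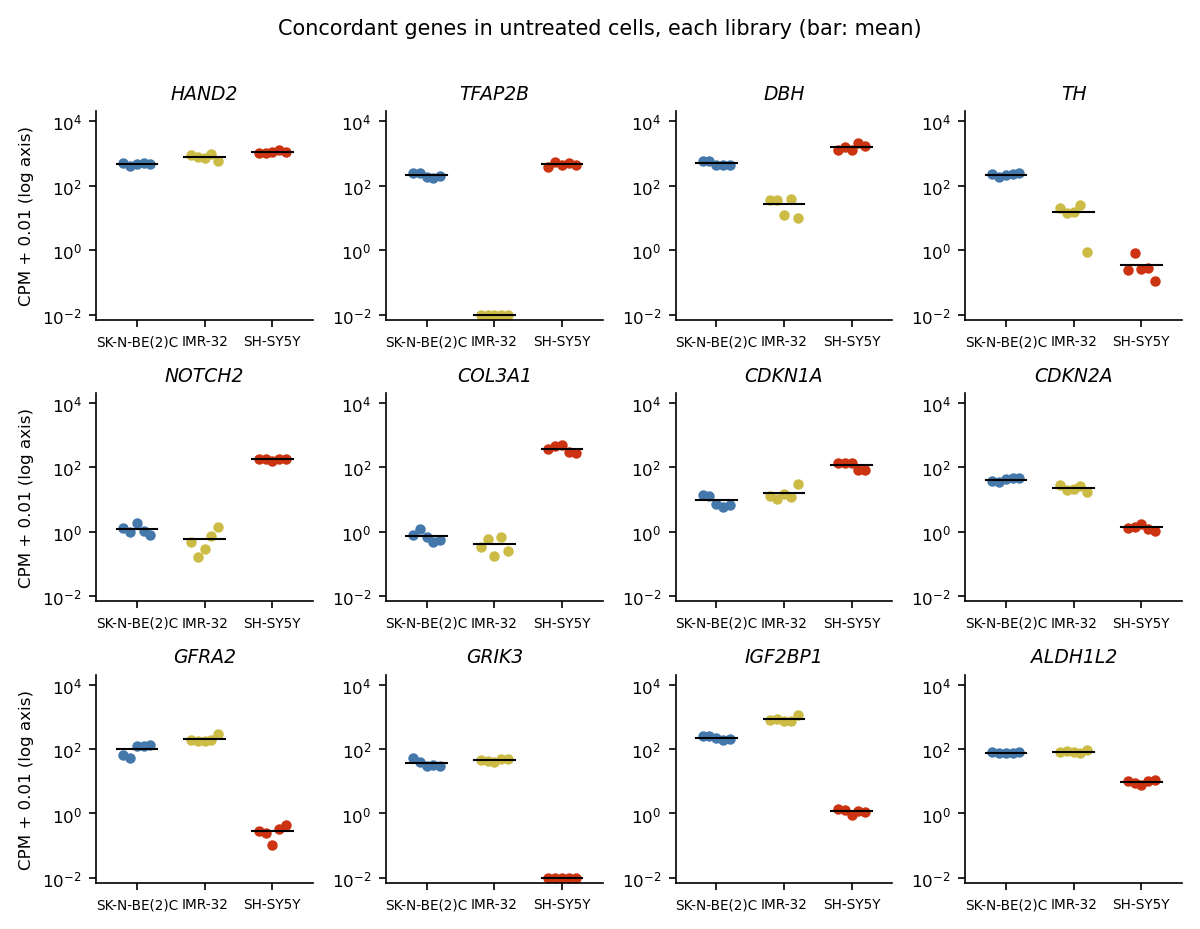
CPM + 0.01 on a log axis for 12 concordant genes, with 1 point per library and a bar at the mean of 5. SH-SY5Y (red) lies above both amplified lines in HAND2, TFAP2B, DBH, NOTCH2, COL3A1 and CDKN1A and below them in the other genes, and TH shows IMR-32 replicate 5 at 0.852 CPM, apart from its line.

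Among mesenchymal transcription factors 7 of 29 were concordantly higher in SH-SY5Y (24.1%, against 13.3% of all genes) and 4 lower (13.8%, against 10.6%), with a median of 1.14 from the mean of both lines. NOTCH2, a receptor whose cleaved part acts on transcription, stood at 184, 176, 158, 181 and 177 CPM in SH-SY5Y, against 1.30, 1, 1.9, 1.07 and 0.778 CPM in SK-N-BE(2)C and 0.464, 0.157, 0.286, 0.703 and 1.40 CPM in IMR-32, 144-fold and 291-fold higher by the means. NOTCH3 was at 182 ± 22.8 CPM against 15.7 ± 4.76 and 45 ± 26.8 CPM. YAP1, a coactivator under Hippo control, was at 31.2 ± 3.57 CPM against 0.107 ± 0.0690 CPM in SK-N-BE(2)C. Replicates 1 to 4 of IMR-32 had 0.629 to 1.51 CPM and replicate 5 had 18.4 CPM. TBX18 was higher too, at 16.4 ± 1.88 CPM. ZEB1 and ZNF217, regulators also tied to this state, were lower, at 76.2 ± 8.16 and 45.4 ± 3.12 CPM against 113 ± 3.98 and 178 ± 7.41 CPM for ZEB1 and 97.7 ± 3.57 and 83.3 ± 10.6 CPM for ZNF217. With library totals alone the list had 11 higher and 3 lower, and ZEB1 was not concordant. Of the 7 mesenchymal markers 3 were concordantly higher (YAP1, FN1 and VIM), while CD44 was at 4.72 CPM against 67.2 and 0.0422 CPM and WWTR1 at 2.25 CPM against 4.98 and 0.14 CPM, and the marker list had a median of -0.14 from SK-N-BE(2)C and 2.81 from IMR-32. FN1 was at 133 ± 8.12 CPM against 37.7 ± 5.80 and 38.3 ± 26 CPM, and VIM at 986 ± 163 CPM, overlapping 838 CPM in IMR-32 replicate 5.

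Retinoid genes of the retino-sympathetic program had 4 of 14 concordantly higher (28.6%, against 13.3% of all genes) and 1 lower (7.14%, against 10.6%). The list as a whole was not shifted, with a median of 0.02 from the mean of both lines, beside 0.05 over all genes. Of the 4, RARB overlapped the IMR-32 libraries (0.70 ± 0.30, adjusted p = 0.045). It was not concordant with no filter on low counts or with many single libraries left out. Without the libraries in doubt 3 were higher and 1 lower, with a median of -0.18. The retinoic acid receptor RARG was at 80.7 ± 8.59 CPM against 35.2 ± 3.61 and 25.6 ± 1.41 CPM, and MEIS2 at 277 ± 19.6 CPM against 109 ± 8.03 and 11.2 ± 0.803 CPM. RXRA, the common partner of these receptors, was lower at 34.5 ± 1.57 CPM against 52.4 ± 3.15 and 68.7 ± 9.56 CPM, though not concordant with library totals alone.

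Among 29 genes of neurotrophin, RET and ALK signalling and other receptor tyrosine kinases such as ERBB2 and PDGFRA, 4 were concordantly higher and 4 lower (13.8% each, near the shares of all genes). GFRA2, the coreceptor through which neurturin activates RET, was at 0.270, 0.243, 0.0965, 0.314 and 0.438 CPM in SH-SY5Y, against 63.6, 53.9, 121, 125 and 129 CPM in SK-N-BE(2)C and 188, 182, 172, 189 and 300 CPM in IMR-32 (-8.46 ± 0.39 and -9.53 ± 0.39, adjusted p = 1.0e-11 and 2.1e-12). Its ligand NRTN was in contrast higher, at 6.83 ± 1.61 CPM against 1.42 ± 0.494 and 1.97 ± 0.744 CPM, as was GFRA3, the coreceptor for artemin, at 6.15 ± 2.46 CPM. NTRK3, the receptor of neurotrophin-3, was at 0.0349 ± 0.0339 CPM against 2.21 ± 0.166 and 73.4 ± 37.5 CPM, and NGFR at 11.5 ± 1.91 CPM against 27.5 ± 11.1 and 103 ± 33.3 CPM. PDGFRA was at 159 ± 24.2 CPM against 0.510 ± 0.324 and 55.5 ± 36.3 CPM, and ERBB2 at 9.57 ± 0.399 CPM against 0.652 ± 0.176 and 1.43 ± 0.602 CPM.

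Genes that report RAS-ERK signalling were mixed, with 5 of 27 concordantly higher (18.5%) and 3 lower (11.1%), against 13.3% and 10.6% of all genes, and a median of 0.81 from the mean, beside -0.14 from SK-N-BE(2)C and 0.80 from IMR-32. DUSP6, the phosphatase of ERK, was at 54.9 ± 7.28 CPM against 8.68 ± 4.72 and 2.37 ± 0.589 CPM, and EPHA2 at 40.2 ± 9.32 CPM against 8.82 ± 2.96 and 4.45 ± 1.12 CPM. PHLDA1 went the other way, at 6.52 ± 2.87 CPM against 130.1 ± 23.8 and 242 ± 85.1 CPM.

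Among the BCL2 family and other apoptosis genes listed with it, such as caspases, 6 of 22 genes were concordantly higher (27.3%, against 13.3% of all genes) and 1 lower (4.55%, against 10.6%). The higher ones included BCL2L11 (46.0 ± 5.51 CPM against 20.4 ± 1.24 and 19.1 ± 1.55) and CASP9 (12.4 ± 2.43 CPM against 1.85 ± 0.85 and 5.07 ± 1.10). BBC3, a BH3-only protein, was at 18.7 ± 3.18 CPM against 3.55 ± 1.16 and 4.73 ± 2.39 CPM. BID was lower, at 41.3 ± 2.22 CPM against 83.1 ± 3.62 and 74.7 ± 3.43 CPM.

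G1 control, the step on which palbociclib acts, had 4 of 30 genes concordantly higher (13.3%, as among all genes) and 5 lower (16.7%, against 10.6%). With library totals alone 5 were higher and 2 lower. CDKN1A, the CDK inhibitor p21, stood at 140, 138, 134, 85.0 and 83.4 CPM in SH-SY5Y, at 13.5, 13.2, 7.15, 6.06 and 6.95 CPM in SK-N-BE(2)C and at 12.9, 10.6, 14.9, 12 and 31.1 CPM in IMR-32. The lowest SH-SY5Y library was thus above the highest of the other lines, and the log2 fold changes were 3.61 ± 0.32 and 2.84 ± 0.30 (adjusted p = 2.3e-08 and 2.6e-07). CDKN2A, which encodes the CDK4/6 inhibitor p16 and ARF, stood at 1.31, 1.41, 1.78, 1.21 and 1.02 CPM in SH-SY5Y, against 38.1, 34.3, 42.3, 45.9 and 45.6 CPM in SK-N-BE(2)C and 28.6, 19.7, 20.6, 25.5 and 17.3 CPM in IMR-32 (-4.93 ± 0.17 and -4.05 ± 0.17, adjusted p = 2.0e-13 and 1.7e-12). CDKN2C, another inhibitor of CDK4/6, was higher at 157 ± 12 CPM against 72.9 ± 6.96 and 42.0 ± 3.86 CPM. E2F1 was lower at 99.5 ± 11.5 CPM against 181 ± 19.2 and 317 ± 27.2 CPM, and CCND1, cyclin D1, did not separate the lines, at 1404 ± 72.1 CPM against 1792 ± 193 and 1323 ± 129 CPM. The genes of mitosis and kinetochore differed little: of 51 tested, KIF4A was concordantly higher and DSN1 lower (1.96% each), fewer than among all genes, and KIF4A was close to the fold limit (0.50 from SK-N-BE(2)C) and not concordant with RLE factors, DESeq2, the replicate block or most single libraries left out.

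Of 55 neurotransmitter receptors, 18 were concordantly lower (32.7%, against 10.6% of all genes) and 5 higher (9.09%, against 13.3%), with a median of -1.13. GRIK3, a kainate receptor subunit, was at 50.7, 39.2, 29.4, 31.5 and 30.5 CPM in SK-N-BE(2)C and at 45, 42.2, 39.6, 48.6 and 47.3 CPM in IMR-32 and had no read in SH-SY5Y, at least 1330-fold and 1630-fold lower. GRIA1, an AMPA receptor subunit, was at 0.0463 ± 0.0549 CPM against 9.17 ± 2.99 and 2.71 ± 1.28 CPM. CHRM3, a muscarinic receptor, and OPRM1, the mu opioid receptor, were higher: CHRM3 was at 69.4 ± 18.3 CPM against 18 ± 5.43 and 2.64 ± 1.08 CPM, and OPRM1 at 50.5 ± 8.94 CPM against 13.9 ± 3.28 and 0.0219 ± 0.0300 CPM.

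Ion channels had 16 of 57 concordantly lower (28.1%, against 10.6% of all genes) and 6 higher (10.5%, against 13.3%), with a median of 0 from SK-N-BE(2)C and -1.40 from IMR-32. CACNA1H, a T-type calcium channel, had 1 read over the SH-SY5Y libraries, against 24.4 ± 6.35 and 317 ± 80.8 CPM. The potassium channel KCNA3 was at 0.0592 ± 0.0570 CPM against 61.6 ± 4.18 and 1.55 ± 0.534 CPM. Higher were the sodium channel SCN2A, at 15.9 ± 2.81 CPM against 2.89 ± 0.575 and 2.57 ± 1.23, and CACNA2D2, a calcium channel accessory subunit, at 322 ± 74.2 CPM against 58.8 ± 15.7 and 67.2 ± 32.8 CPM. Of 33 neurofilaments, tubulins, stathmins and related genes 9 were concordantly lower (27.3%, against 10.6% of all genes) and none higher (against 13.3%), with a median of -0.60. INA, a neuronal intermediate filament, was at 167 ± 16.3 CPM against 312 ± 10.9 and 349 ± 26.3 CPM, TUBB2A at 53.9 ± 4.12 CPM against 105 ± 3.59 and 164 ± 50.3, TUBA4A at 1.16 ± 0.170 CPM against 5.74 ± 1.38 and 76.6 ± 12, and the RNA-binding protein ELAVL2 at 8.34 ± 0.85 CPM against 15.7 ± 3.26 and 278 ± 24.5 CPM. Tubulins are close copies of each other and may share reads.

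Axon guidance genes differed in both directions, with 15 of 58 genes concordantly higher (25.9%) and 12 lower (20.7%), both above the shares of all genes. The secreted semaphorin SEMA3C was at 101 ± 25.8 CPM against 4.39 ± 0.576 and 0.224 ± 0.111, the SLIT receptor ROBO2 at 58.8 ± 10.8 CPM against 2.25 ± 1.28 and 3.18 ± 1.67, and the ephrin receptor EPHB4 at 121 ± 9.11 CPM against 8.92 ± 1.99 and 0.107 ± 0.213 CPM, of which 0.487 CPM in IMR-32 replicate 5 and at most 0.0464 CPM in its other libraries. In the other direction, the ephrin receptor EPHA5 had no read in SH-SY5Y against 31.6 ± 3.01 and 3.5 ± 0.605 CPM, the netrin receptor UNC5A was at 4.33 ± 0.749 CPM against 88.8 ± 15.5 and 96.9 ± 19.7, and the semaphorin coreceptor NRP2 at 7.99 ± 2.34 CPM against 146 ± 15.2 and 248 ± 58.8 CPM.

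Extracellular matrix and integrin genes had the largest share of concordantly higher members among the lists other than cell type markers, 20 of 55 (36.4%, against 13.3% of all genes), with 4 lower (7.27%, against 10.6%) and a median of 0.94. COL3A1, a fibrillar collagen, stood at 373, 443, 494, 296 and 284 CPM in SH-SY5Y, against 0.773, 1.23, 0.669, 0.461 and 0.556 CPM in SK-N-BE(2)C and 0.324, 0.574, 0.172, 0.659 and 0.243 CPM in IMR-32, 513-fold and 958-fold higher by the means (8.93 ± 0.25 and 9.83 ± 0.26, adjusted p = 2.6e-14 and 1.1e-14). FBN1, which builds microfibrils, was at 87.8 ± 8.66 CPM against 10.9 ± 5.82 and 3.71 ± 0.275 CPM, and ITGA2, a collagen-binding integrin, at 20.3 ± 1.91 CPM against 0.807 ± 0.580 and 4.29 ± 1.31 CPM. The laminin chain LAMC3 was lower, at 0.382 ± 0.229 CPM against 1.37 ± 0.219 and 39.6 ± 9.32 CPM.

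**Figure D4:**
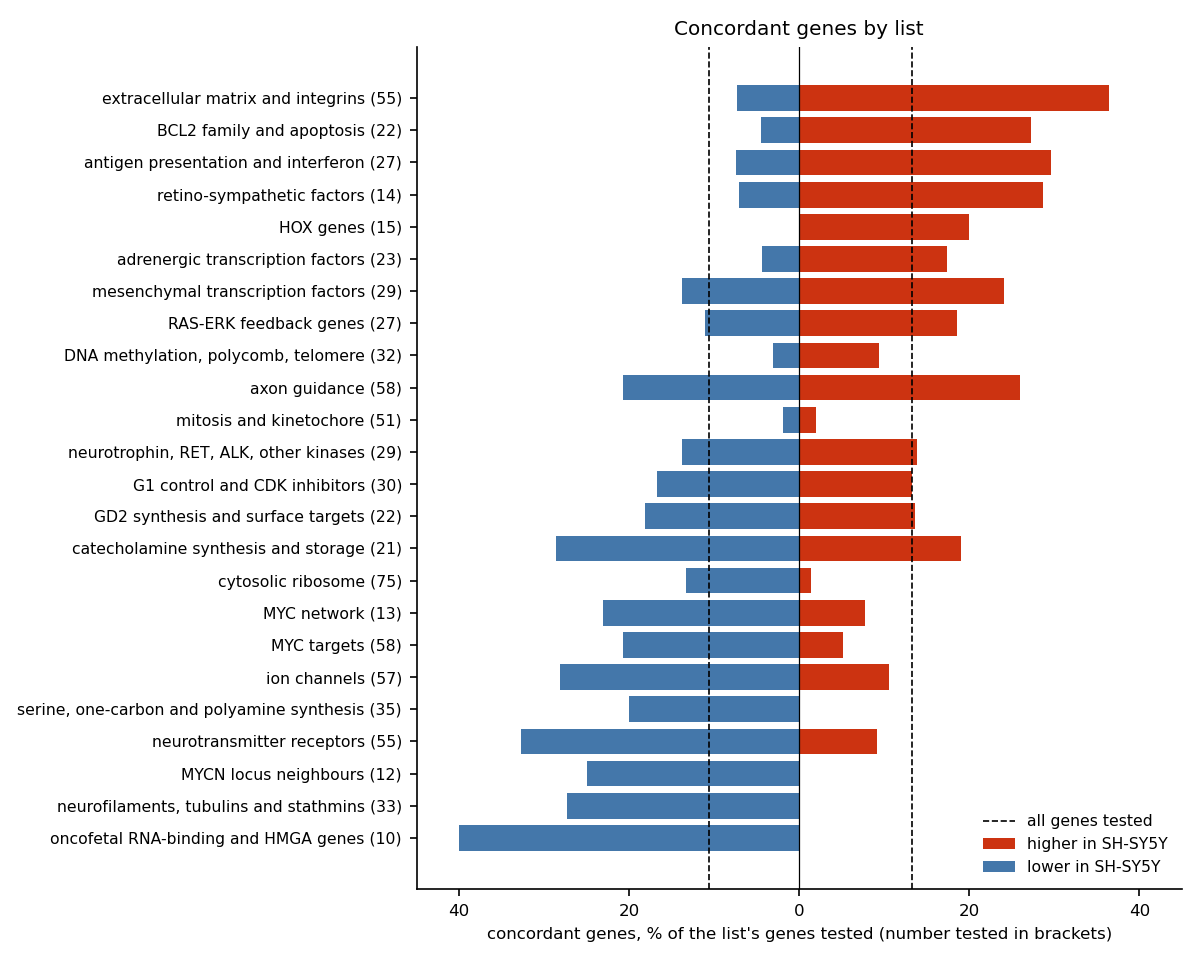
Share of each list's tested genes that were concordantly higher (red, right) or lower (blue, left) in SH-SY5Y, with the number tested in brackets and dashed lines at the shares among all genes tested (13.3% and 10.6%). Matrix genes lie past the line on the higher side and neurotransmitter receptors, ion channels and neurofilaments past it on the lower side, while mitosis genes fall short of both.

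Of 10 oncofetal RNA-binding and HMGA genes, 4 were concordantly lower (40%, against 10.6% of all genes) and none higher (against 13.3%). With library totals alone 2 were lower and 1 higher. IGF2BP1, which stabilises mRNAs in embryonic cells, stood at 1.35, 1.31, 0.917, 1.17 and 1.07 CPM in SH-SY5Y, against 257, 248, 213, 196 and 198 CPM in SK-N-BE(2)C and 787, 849, 743, 723 and 1170 CPM in IMR-32 (-7.56 ± 0.18 and -9.51 ± 0.19, adjusted p = 3.8e-15 and 2.3e-16). LIN28B, a blocker of let-7 maturation, was lower by less, at 38.9 ± 6.26 CPM against 155 ± 14.4 and 58.3 ± 6.91 CPM, as were TRIM71 (1.66 ± 0.366 against 3.49 ± 0.193 and 25 ± 4.53 CPM) and HMGA1 (405 ± 37.1 against 606 ± 46.2 and 1273 ± 165 CPM). LIN28B and HMGA1 were not concordant with library totals alone.

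Antigen presentation and interferon genes had 8 of 27 concordantly higher (29.6%, against 13.3% of all genes) and 2 lower (7.41%, against 10.6%), with medians of -0.43 from SK-N-BE(2)C and 1.11 from IMR-32. The 4 higher ones with the largest steps were low in level, and the levels of the others are not given. IFITM2 was at 9.63 ± 2.40 CPM, IRF7 at 8.24 ± 1.82 CPM, IFIT1 at 2.64 ± 0.636 CPM and IRF1 at 5.56 ± 0.741 CPM, against at most 2.45 ± 0.623 CPM (IRF1 in SK-N-BE(2)C) in the amplified lines. ISG15 was lower at 0.855 ± 0.217 CPM against 6.25 ± 1.20 and 3.26 ± 1.35 CPM. B2M, the light chain of class I molecules, did not separate SH-SY5Y from both lines, at 80.5 ± 13.5 CPM against 359 ± 26.2 and 54.1 ± 12.7 CPM.

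Among 22 genes of GD2 synthesis and surface targets 3 were concordantly higher (13.6%, near the 13.3% of all genes) and 4 lower (18.2%, against 10.6%). The glycosyltransferase B4GALT6 was at 94.7 ± 4.83 CPM against 38.7 ± 6.20 and 13.8 ± 1.89, and the receptor ROR1 at 40.7 ± 2.55 CPM against 11.6 ± 2.06 and 25.5 ± 3.94 CPM. Enzymes of ganglioside synthesis went both ways, since ST3GAL5 was lower, at 8.47 ± 1.09 CPM against 14.8 ± 1.39 and 27.8 ± 8.06 CPM. SSTR2, the somatostatin receptor used for imaging, was at 6.79 ± 1.54 CPM against 24.6 ± 4.90 and 590.2 ± 177 CPM, the Notch ligand DLL3 at 15 ± 2.76 CPM against 40.8 ± 9.07 and 184 ± 41.9, and CD47 at 57.8 ± 3.04 CPM against 165 ± 22.6 and 127 ± 36.4 CPM. Of 15 HOX genes 3 were concordantly higher (20%, near the 13.3% of all genes), all of the HOXD cluster: HOXD13 at 10.3 ± 0.673 CPM against 0.0375 ± 0.0514 and 1.09 ± 0.583, HOXD11 at 7.58 ± 0.740 CPM against no read and 1 read, and HOXD10 at 9.69 ± 0.605 CPM against 1.13 ± 0.514 and 1.56 ± 0.523 CPM. Of 32 genes of DNA methylation, polycomb and other chromatin and telomere functions 3 were concordantly higher (9.38%, against 13.3% of all genes) and 1 lower (3.12%, against 10.6%), or 4 and 0 with library totals alone. ATRX, a chromatin remodeller lost in some neuroblastomas, was at 335 ± 5.87 CPM against 151 ± 17.3 and 188 ± 16.7, TERT, the telomerase catalytic subunit, at 14.5 ± 1.12 CPM against 4.05 ± 0.615 and 5.32 ± 1.06, and CBX7 at 2.49 ± 0.324 CPM against 0.663 ± 0.212 and 0.842 ± 0.381 CPM. CBX6 was lower at 59.7 ± 4.13 CPM against 340.4 ± 4.99 and 87.6 ± 6.81 CPM.

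Concordant genes were unevenly spread over the chromosomes. Arms were compared by the median log2 fold change of their genes and by the share of concordant genes, as a description with no test, for 95.9% of the genes tested. Against the mean of both lines 7q had the highest median (0.51) and 7p the next (0.40). On 7q 133 of 474 genes were concordantly higher (28.1%, against 13% of all placed genes), with medians of 0.36 from SK-N-BE(2)C and 0.64 from IMR-32, and on 7p 56 of 251 (22.3%), with 0.26 and 0.41. From SK-N-BE(2)C alone other arms stood higher, such as 9p (0.70) and 17p (0.69), which were at -0.05 and -0.10 from IMR-32. The lowest medians against the mean of both lines were those of 8q (-0.38), with 75 of 324 genes lower (23.1%, against 10.6%) and single medians of -0.25 and -0.56, and of 22q, with 83 of 366 lower (22.7%) and medians of -0.45 and -0.20. MYC, higher in SH-SY5Y, lies on 8q. Of the arms named as altered in these lines, 1p had a median of 0.51 from SK-N-BE(2)C but -0.03 from IMR-32, 1q of 0.24 and 0.08, and 17q of 0.17 and -0.34. Neither 1p nor 17q was in the same direction from both lines, though 1p was near 0 from IMR-32. Medians of 7q, 7p, 8q and 22q kept their sign with library totals alone (0.68, 0.58, -0.21 and -0.15, beside 0.21 over all placed genes). Copy number was not measured here, and its part in these values was not tested.

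**Figure D5:**
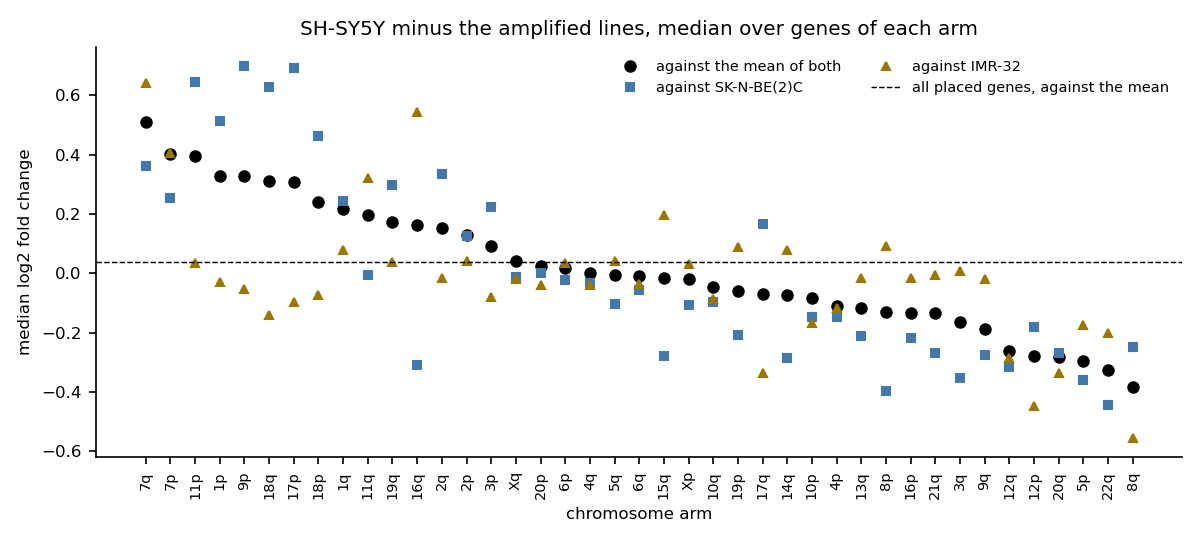
Median log2 fold change of SH-SY5Y over the tested genes of each chromosome arm with at least 50 genes, against the mean of both amplified lines (circles), SK-N-BE(2)C (squares) and IMR-32 (triangles), ordered by the circles. All symbols of 7q and 7p lie above the dashed median of all placed genes, and all of 8q, 22q, 5p, 20q, 12p and 12q lie below it.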

How the data were processed

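The 15 control libraries of the 3 lines were used, grouped by the line and agent given in their labels. The counts were deposited as raw reads per gene symbol. Per the labels and methods, the authors made polyA-selected directional libraries for paired-end NovaSeq sequencing, trimmed with Trim Galore and mapped to hg19 by STAR, which also gave the counts. The submitters' notes give Trim Galore 0.6.4 and STAR 2.6.1d. The sources used here do not say which strand column was taken. Genes that overlap another gene on the opposite strand are uncertain, among them MYCN, MYC, CDKN1A, CDKN2A, HAND2, DBH, YAP1 and the RTL1 locus. CPM tables and tables of the authors' own comparisons were not used.

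The 3 tables were joined by symbol, since all were deposited as counts of the same 29159 genes. In R 4.3.3, edgeR 4.0.16 gave TMM factors, a filter (filterByExpr, at least 10 counts, 15 in total, share 0.7) and a robust quasi-likelihood test with 1 mean per line and a spread shared by all 15 libraries. P-values were adjusted by Benjamini-Hochberg over the 15173 genes tested. The biological coefficient of variation was 14.1%, and DESeq2 1.42.0 served as an alternative. List medians were unaltered when genes with 0 counts in a line were set to their bounds. Counting intervals are 95% (exact) and cover counting error only, as does the floor of 3 counts. Replicates are passages, so p-values measure the spread between passages of 1 line each, not between tumours. The fit was checked on simulated counts.

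Members, lists and tests were chosen with earlier results of these data known. Genes were named by rule: the 10 highest and 10 lowest protein-coding concordant genes by the smaller of their 2 single fold changes (libraries not overlapping, at least 20 CPM on the higher side), up to 4 concordant members per list and direction (at least 1 CPM), of which most are described, and 21 genes fixed by name. CDK4, HSPD1, HSPE1, ATF4, CD44, WWTR1 and the genes of the DLK1 locus and PRAME fall outside it and were chosen after their values were seen. Gene positions are those of GENCODE 44 lifted to GRCh37. Symbols matched it for 25637 of 29159 genes. Some of the genes so chosen are not reported here.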

Additional observations from a re-analysis of the deposited data

Results flagged for a closer look

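Groups of 5 libraries were examined for the 139 genes described, 417 groups in all, and in 44 of them the highest or lowest library lay apart from the other 4 by Dixon's test at the 95% level, where chance gives about 1 in 20. IMR-32 replicate 5 was the library apart in 23 of the 44.

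The genes high in that library were these. It had 838 CPM of VIM (the other IMR-32 libraries 332 to 379), 84.1 of FN1 (20.1 to 30.8), 18.4 of YAP1 (0.629 to 1.51), 92.4 of NOTCH3 (26.5 to 37.2), 120 of PDGFRA (36.1 to 43.2), 31.1 of CDKN1A (10.6 to 14.9), 0.487 of EPHB4, 56.1 of LAMC3, 2.49 of IRF1, 7.18 of TERT, 907 of SSTR2 (500 to 520), 300 of GFRA2 (172 to 189), 1170 of IGF2BP1, 112 of LIN7A, 95.5 of B3GALNT1 and 101 of KIF4A. Low in it were other genes, with 64.6 CPM of ISL1 (150 to 166), 143 of ADCYAP1 (203 to 214), 91.8 of PHLDA1 (264 to 299), 55.7 of TUBA4A, 10.1 of BEGAIN and 1.10 of MEG8. What sets it apart was not tested.

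Single libraries of other groups lay apart as well. In SK-N-BE(2)C these were HOXD10 (2.03 CPM) and DSN1 (45) in replicate 1 and INA (331), KIF4A (110) and MLX (101) in replicate 2. In SH-SY5Y they were TH (0.777) and HSPD1 (584) in replicate 2, HSPE1 (24.3) and RABEPK (23.9) in replicate 3 and NBAS (54.2) in replicate 4. The rest were 1 or 2 reads in a group otherwise at 0: ADCYAP1 (0.0486 CPM) and LIN7A (0.0486) in SH-SY5Y replicate 2, CACNA1H (0.0482) and NKX6-1 (0.0482) in replicate 3, B3GALNT1 (0.0896) and STC1 (0.0448) in replicate 4, TES and RCAN3 (0.0483 each) in SK-N-BE(2)C replicate 1, and HOXD11 (0.0464), MSRB3 (0.0572), MAGEA10 (0.0439) and RCAN3 (0.0608) in IMR-32.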

How the results depend on the processing

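Counts of called genes depended on the fold limit. With no limit, 11266 genes were called against the mean of both lines and 5850 were concordant, 2841 of them lower. With a log2 limit of 1 the calls were 4190 against the mean, 5174 against SK-N-BE(2)C and 4977 against IMR-32, and 1930 genes were concordant, 1123 higher and 807 lower. With the limit of 0.5, each of the other alternatives stayed within 1.5 times the reported counts: concordant genes numbered 3567 to 3727 when any 1 of the 15 libraries was left out. The replicate block gave 2014 higher and 1598 lower. Replicate numbers do not pair the lines: deviations of same-numbered libraries correlated at -0.085 to 0.159, above 0.1 in 3 of 15 pairs.

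Without the libraries in doubt (IMR-32 replicate 5 left out and SK-N-BE(2)C replicates 3 to 5 summed, an alternative chosen after seeing the data) 2145 genes were concordantly higher and 1666 lower, and 3432 of the 3625 concordant genes remained so. With library totals alone 69% of the calls against the mean were higher (57.3% with TMM), 3165 of the 3625 remained, 17 of 168 concordant genes named by the rule or the text were lost (among them MLXIP, DSN1, CBX6, RPL24 and HSPE1), and CCND1 changed sign (0.038, adjusted p = 0.63, neither called). DESeq2 kept 3562 of the 3625. Medians of the lists of the MYC network, GD2, G1, mitosis and DNA methylation were near 0 and turned positive with library totals alone.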

Other observations

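The imprinted DLK1 locus on 14q differed between SH-SY5Y and both amplified lines in opposite directions within the locus. These genes were chosen after their values were seen. MEG3, the maternally expressed long noncoding RNA, had no read in SH-SY5Y, against 405, 395, 186, 188 and 194 CPM in SK-N-BE(2)C and 138, 121, 96.1, 146 and 12.7 CPM in IMR-32, at least 10000-fold and 3770-fold lower. MEG8 was at 0.333 ± 0.110 CPM against 23.8 ± 6.57 and 5.74 ± 2.73 CPM, and MEG9 at 0.0646 ± 0.0436 CPM against 10.4 ± 4.53 and 1.92 ± 0.936 CPM. RTL1, which is expressed from the paternal copy, was at 1210, 1600, 1130, 1900 and 1350 CPM in SH-SY5Y, against 27.5, 30.1, 5.25, 5.76 and 9.56 CPM in SK-N-BE(2)C and no read in IMR-32. DIO3, at the far end, was at 17.5 ± 3.49 CPM against 0.113 ± 0.119 and 0.630 ± 0.258 CPM, and BEGAIN, next to DLK1, at 170 ± 28.1 CPM against 59.6 ± 4.06 and 15.9 ± 3.35 CPM. DLK1, also paternal, did not follow them from both lines, at 1383 ± 223 CPM against 1202 ± 599 and 76.1 ± 30.0 CPM. In SK-N-BE(2)C, MEG3, RTL1 and DLK1 were all lower in replicates 3, 4 and 5 than in replicates 1 and 2. Reads of RTL1 and of transcripts antisense to it cannot be told apart here.

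PRAME, a cancer-testis antigen that binds retinoic acid receptors, was at 384 ± 12.3 CPM in SH-SY5Y against 12.7 ± 2.21 CPM in SK-N-BE(2)C and no read in IMR-32, beside the MAGEA genes described above.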
